A study of Mus musculus with 6 samples.

Results

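The 35 genes described here are markers of differentiating neurons of the kind found in the cranial ganglia, and they were read on arrays of RNA from the otic vesicle of mouse embryos at embryonic day 11.5. They were chosen by name, and each is read by every probe set that the platform annotation assigns to its symbol alone. This gave 76 probe sets of 45037, for 35 genes of 18193. The genes fall by role into 10 of microtubules, 5 of neurofilaments and related filaments, 4 of RNA binding, 3 of axon growth and adhesion, 7 of vesicle release and secretory granules, and 6 others.

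The Mest-KO group held otic vesicles of T-Cre conditional Tbx1 knockout embryos. The control group held those of T-Cre conditional Tbx1 heterozygotes, so both groups carried the Cre. T-Cre is a recombinase driven by regulatory sequence of the Brachyury gene and acts in early mesoderm, so the deletion was directed at tissue around the vesicle and not at the vesicle epithelium. Each group had 3 arrays, each array held RNA from both ears of 3 pooled embryos of one genotype, and periotic tissue had been treated with dispase for 30 min at 37 °C to strip it from the vesicle.

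The neurons of the inner ear arise in the ventral wall of the otic vesicle. Neuroblasts leave that epithelium, gather beside it as the cochleovestibular ganglion, and then grow axons. A neuron that leaves the cell cycle switches on a shared set of genes: a neuronal tubulin and proteins that bind microtubules, neurofilament subunits that fill the axon, RNA-binding proteins of the Hu family, cell adhesion molecules of the growth cone, and the machinery of vesicle release. A dissected vesicle can carry some of these ganglion cells with it. In bulk RNA, fewer neurons in a pool and less RNA of a gene per neuron cannot be told apart. The arrays also do not show which cells of a pool a signal came from. The share from cells other than neurons, the vesicle epithelium among them, was not tested.

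The arrays set the limits of the comparison. Every deposited array had a trimmed mean intensity of 500, and with few arrays only large or very even differences can be seen. Array Mest-KO 3 stood apart, with a median intensity of 91.0, against 62.1 to 71.0 on the others, and a first principal component score of 36.4, against -10.3 to -1.78. Xist was at 16.1 in the Mest-KO 1 pool and the Y-linked Eif2s3y at 12.1 in the control 2 pool, so each of these pools held embryos of 1 sex. Tbx1 read 704 to 910 in Mest-KO and 690.2 to 898 in control. Otic epithelial genes were bright throughout. Their mean log2 level (11 genes, among them Oc90, Epcam and Krt8) ran from 12.0 to 12.1 in Mest-KO and from 12.1 to 12.2 in control. Each pool thus held otic epithelium, as labelled.

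Of the 35 genes, 26 had a probe set brighter on average than the 40th percentile, an intensity of 34.4, and these were compared between the groups. Changes are Mest-KO minus control, as differences of quantile normalized log2 values from a limma fit over 12462 genes, with the standard error (SE) of the fit and n = 3 arrays per group. Intensities are the deposited linear values. Because normalization acts on the log2 values, a change can differ from the ratio of the mean intensities.

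No neuron gene changed at an adjusted p under 0.05. The count was 0 of 26, against a background of 0% of all genes, and the smallest adjusted p was 0.5497, for Mapt. With limma's variance trend the count was also 0 of 26, with a background of 0.104%. Before adjustment, 3 genes (11.5%) had a p under 0.05, against a background of 5.15%. Of these, 1 was higher (background 2.24%) and 2 were lower (background 2.91%). With the trend, 2 genes, Map2 and Mapt, had a limma unadjusted p under 0.05, against 760 of all 12462 genes. Values did not overlap between the groups for 4 of 26 genes, against a background of 10.6%. Here 1 was higher (background 4.75%) and 3 were lower (background 5.86%). A change beyond 0.5 log2 units was seen in 5 genes, Mapt, Mapk10, Sncg, Nefl and Ina, all of them dim or uneven between pools (background 4.37%). Without Mest-KO replicate 3, of these 5 only Mapt (-0.98) lay beyond 0.5. Log2 changes ran from -0.97 to 0.38 with a median of -0.095, and the median over all tested genes was -0.003. In Mest-KO 8 genes lay higher and 18 lower, while 49.1% of all genes lay higher. That balance depended on single arrays. Without Mest-KO 3, 16 genes lay higher and 10 lower, and the median was 0.04. Without control 1, 12 lay higher and 14 lower, with a median of -0.03.

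**Figure D1:**
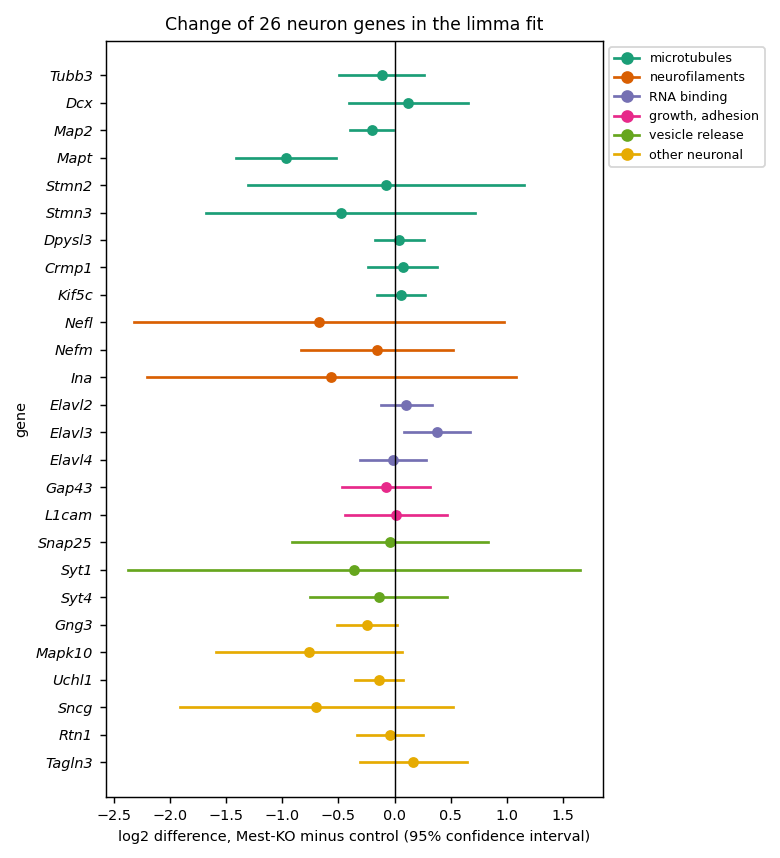
Log2 difference between Mest-KO and control for the 26 neuron genes above the filter, grouped by role (colour). Points are estimates and lines are 95% confidence intervals from limma (n = 3 arrays in each group). Mapt, Map2 and Elavl3 have intervals that leave out 0 before adjustment, and the intervals of Syt1, Nefl, Ina, Stmn2, Sncg and Stmn3 are the widest.

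Elavl3, which encodes an RNA-binding protein of the neuronal Hu family that stabilises transcripts of differentiating neurons, had the most positive change. Its intensity was 119.9, 138 and 139.6 in Mest-KO, against 110.2, 74.3 and 98.5 in control. The 3 Mest-KO pools lay above the 3 controls, with the gap between Mest-KO 1 and control 1 the narrowest. The log2 change was 0.38 (SE 0.121, 95% confidence interval 0.09 to 0.67; limma unadjusted p = 0.0190, adjusted p = 0.9090). With the variance trend the limma unadjusted p of Elavl3 was 0.106. Its second probe set above the filter gave 0.58 (SE 0.528) with overlapping groups, and the third, below the filter, gave 0.74. All 3 probe sets had the same sign, but both above the filter were made from the same sequence record. At the second, normalized log2 values were 5.78, 5.39 and 5.51 in Mest-KO, against 5.79, 3.735 and 5.43 in control. Control 2 was the lowest array at all 3 probe sets. At the probe set used for the gene, the sign held with each array left out (0.28 to 0.47).

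The other Hu genes had changes closer to 0. Elavl2 read 847, 914 and 916 in Mest-KO, against 886, 753 and 848 in control, with overlap. Its log2 change was 0.10 (95% confidence interval -0.13 to 0.33), and the 3 other probe sets above the filter gave -0.02, -0.15 and 0.02. For Elavl4, the best read probe set stood at 308, 359 and 296 in Mest-KO and at 298, 296 and 346 in control. It gave a change of -0.01 (95% confidence interval -0.31 to 0.28). A second Elavl4 probe set read 107, 138 and 143 in Mest-KO and 166, 127 and 199.6 in control. Its normalized values did not overlap, although the deposited value of control 2 fell among those of Mest-KO, and its change was -0.43 (SE 0.165; limma unadjusted p = 0.0414, adjusted p over all probe sets 0.9696). The third gave 0.12, so the probe sets of Elavl4 do not share a direction. Celf3, an RNA-binding splicing regulator of neurons, was read by 1 probe set below the filter, at 4.32 to 7.31 in Mest-KO and 2.20 to 9.98 in control.

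Promoter windows of the Hu genes are shown because this family held the member with the most positive change, and the neuronal bHLH factors described below bind E-boxes. RefSeq windows (GRCm38.p6, 250 bases before to 50 after a start site) were given for 25 of the 35 genes, 46 windows in all. The E-box CAGCTG, which reads the same on both strands, lay in a window of 8 of these 25 genes (32.0%), against 18.3% of all 27025 genes with a window. Elavl2, Elavl3 and Elavl4 were among the 8, with Ina, Celf3, Syt1, Chga and Chgb. The other E-box searched, CAGATG on either strand, lay in 7 of 25 (28.0%), against 19.2% of all genes. Capitals mark CAGCTG. The Elavl3 window is shown whole (chr9:22051974-22052273, minus strand), and stretches around the match are shown for Elavl2 (chr4:91399951-91400010, minus strand) and Elavl4 (chr4:110287541-110287600, minus strand).
Elavl3: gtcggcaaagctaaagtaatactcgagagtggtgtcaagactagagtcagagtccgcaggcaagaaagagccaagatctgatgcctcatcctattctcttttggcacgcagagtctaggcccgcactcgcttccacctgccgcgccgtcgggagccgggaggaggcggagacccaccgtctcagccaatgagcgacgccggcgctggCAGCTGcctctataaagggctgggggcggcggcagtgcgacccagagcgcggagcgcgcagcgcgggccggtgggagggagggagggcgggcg
Elavl2: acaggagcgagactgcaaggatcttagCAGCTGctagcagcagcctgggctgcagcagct
Elavl4: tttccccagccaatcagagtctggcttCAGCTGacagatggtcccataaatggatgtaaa
The match began at position -43 in Elavl3 relative to its annotated start site. In Elavl4 it lay at -46 from one annotated start site and -62 from another. In Elavl2 the match shown began at position 2, and a second match, not shown, lay at 42 or 16 from 2 other start sites. A match describes the letters in these windows and was not tested as a binding site.

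Among the microtubule genes, 9 of 10 were above the filter, 4 higher and 5 lower, with a median change of -0.08. Tubb3, the neuron-specific beta tubulin, read 660.4, 682 and 490.5 in Mest-KO, against 736, 578.5 and 619 in control. The groups overlapped, with Mest-KO 3 the lowest array. The change was -0.11 (95% confidence interval -0.49 to 0.26). Dcx, the microtubule protein of migrating young neurons, read 758.5, 616 and 888 in Mest-KO, against 556, 649.6 and 882 in control, and differed by 0.12 (95% confidence interval -0.41 to 0.65). A second Dcx probe set above the filter gave -0.17.

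Map2, which binds microtubules in cell bodies and dendrites, read 1108, 1082 and 1067 in Mest-KO, against 1223, 1320 and 1213 in control. The groups did not overlap and the Mest-KO pools lay close together. The difference was small, 1.15-fold lower (log2 -0.20, SE 0.0787; limma unadjusted p = 0.0396, adjusted p = 0.9090). Its 3 other probe sets, below the filter, gave -0.19, -0.80 and -0.72, each with overlapping groups.

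Mapt, which encodes the axonal microtubule protein tau, had the most negative change, but it was dim. It read 20.1, 35.0 and 44.0 in Mest-KO, against 56.3, 54.0 and 51.8 in control, so the controls were alike and the Mest-KO pools were spread, with Mest-KO 1 the lowest. The log2 change was -0.97 (SE 0.183, 95% confidence interval -1.41 to -0.52; limma unadjusted p = 0.00159, adjusted p = 0.5497, and 0.786 with the trend). The other Mapt probe sets, below the filter, gave 0.35, 0.15 and -0.72. The Mapt probe sets thus lay on both sides of 0.

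The stathmins, which sequester tubulin and mark axon growth, varied more between pools of one group than between groups. Stmn2 read 158, 234 and 109 in Mest-KO, against 234, 69.95 and 207 in control. The lowest and one of the highest values were both controls. Its change was -0.08 (95% confidence interval -1.30 to 1.15), and the second probe set gave -0.05. Stmn3 read 103, 242 and 135 in Mest-KO, against 403, 123 and 149.7 in control, where control 1 stood above the rest. Its change was -0.48 (95% confidence interval -1.68 to 0.72), and its second probe set gave -0.06. Stmn4 lay below the filter, at 16.4 to 27.7 in Mest-KO and 3.23 to 49.9 in control.

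The remaining microtubule genes were read with less spread at the probe set that stood for the gene. Dpysl3, a collapsin response mediator that shapes the growth cone, read 4554, 5414 and 4591 in Mest-KO, against 4815, 4891 and 4862 in control. Its change was 0.04 (95% confidence interval -0.18 to 0.26), while its 2 other probe sets gave -0.11 and -0.19. Kif5c, a kinesin heavy chain that carries cargo along axons, read 2120, 1896 and 2014 in Mest-KO, against 1980, 1831 and 2017 in control, and differed by 0.05 (95% confidence interval -0.16 to 0.27). Its other probe sets above the filter gave 0.08 (SE 0.246) and 0.65 (SE 0.515), one below it gave -2.83, and the mean over its probe sets gave -0.51. The groups overlapped at each probe set. Crmp1, a relative of Dpysl3, differed by 0.07 (95% confidence interval -0.24 to 0.38).

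Of the filament genes, 3 of 5 were above the filter, and all 3 lay lower with overlapping groups. Nefl, the light neurofilament subunit, read 203, 305 and 65.1 in Mest-KO, against 277, 155 and 246 in control. Mest-KO 2 was the highest pool of all and Mest-KO 3 the lowest. Its change was -0.67 (SE 0.681, 95% confidence interval -2.32 to 0.97), and without Mest-KO replicate 3 it was 0.14. The second Nefl probe set gave -0.04. Ina, the alpha-internexin subunit of young axons, read 124, 182 and 63.1 in Mest-KO, against 317, 66.2 and 138 in control. Here the highest and nearly the lowest pool were controls, and the change of -0.56 (95% confidence interval -2.21 to 1.08) became 0.03 without Mest-KO replicate 3.

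Nefm, the medium subunit, read 80.2, 109 and 71.9 in Mest-KO, against 92.9, 87.9 and 71.7 in control, and differed by -0.16 (95% confidence interval -0.83 to 0.52). Without Mest-KO replicate 3 it stood at 0.14. Nefh, the heavy subunit that is added late in axon maturation, lay below the filter with 1.07 to 66.2 in Mest-KO and 6.43 to 35.6 in control. Prph, which encodes peripherin, a filament of peripheral neurons, was also below it at all of its 4 probe sets. The one of highest mean read 5.53 to 15.5 in Mest-KO and 0.988 to 17.5 in control.

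**Figure D2:**
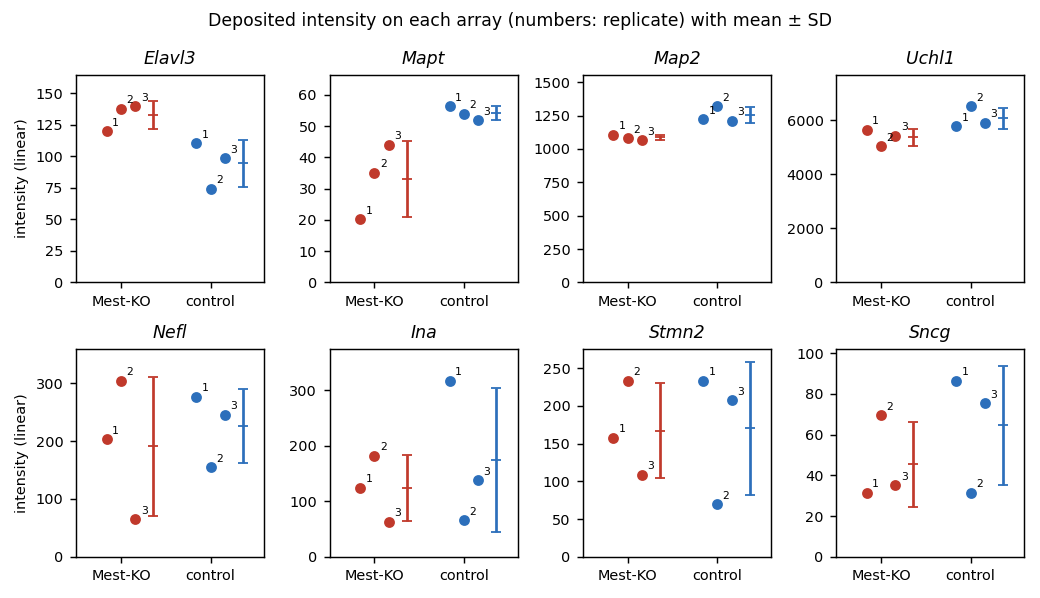
Deposited linear intensity of 8 neuron genes on each array, with Mest-KO left of control. Points are single arrays with their replicate number, and bars are the mean ± SD of 3 arrays. Elavl3 separates upward, Mapt, Map2 and Uchl1 separate downward, and in Nefl, Ina, Stmn2 and Sncg the pools of one group span nearly the whole range.

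Of the growth cone and adhesion genes, Gap43, a protein of growing axon tips, read 216, 205.6 and 179 in Mest-KO, against 229, 156 and 218 in control. The groups overlapped, and the change was -0.08 (95% confidence interval -0.47 to 0.32). L1cam, an adhesion molecule of axon bundles, read 126, 99.1 and 122 in Mest-KO, against 120.4, 114 and 84.5 in control. It differed by 0.01 (95% confidence interval -0.44 to 0.46).

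Cntn2, an axonal adhesion molecule of the contactin family, lay below the filter at all of its 4 probe sets and entered no test above. Its brightest probe set read 16.1, 10.9 and 17.8 in Mest-KO, against 68.6, 35.9 and 22.8 in control, with every Mest-KO pool under every control. The change was -1.57, and with no filter the limma unadjusted p was 0.0131 and the adjusted p 0.9749. A second probe set, made from the same sequence record, gave -1.43 (11.3, 8.94 and 8.55 in Mest-KO, against 37.4, 20.1 and 13.3 in control). The 2 others gave 0.24 and -0.68 with overlapping groups. With no filter, 776 of all 18193 genes had a limma unadjusted p under 0.05. Of the members below the filter, only Cntn2 did. Changes of the others ran from -1.14 (Chga) to 0.74 (Chgb). As for every gene below the filter, these values carry no direction.

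Of the genes of vesicle release and secretory granules, 3 of 7 were above the filter, each with a change below 0 and overlapping groups. Snap25, a membrane fusion protein of the release machinery, read 84.5, 194 and 118 in Mest-KO, against 91.4, 103 and 172 in control, and differed by -0.04 (95% confidence interval -0.91 to 0.83). Syt1, the calcium sensor of fast release, read 79.3, 61.0 and 13.6 in Mest-KO, against 46.2, 30.1 and 62.4 in control. Mest-KO pools held both the highest and the lowest value. The change of -0.36 (95% confidence interval -2.37 to 1.65) was 0.67 without Mest-KO replicate 3. Syt4, a relative found on dense-core vesicles, differed by -0.14 at one probe set and 0.31 at the other.

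Genes of the granule matrix were dim in every pool. Scg2 read 1.74 to 22.4 in Mest-KO and 0.597 to 23.8 in control, and Scg3 read 8.88 to 39.2 in Mest-KO and 17.7 to 32.4 in control. Chga, which encodes chromogranin A, read 2.72 to 10.8 in Mest-KO and 5.38 to 21.8 in control. Chgb stood at 12.0, 52.0 and 57.8 in Mest-KO, against 21.6, 9.75 and 26.6 in control, and overlapped. None had a probe set above the filter, so these values describe signal near the dim end of the arrays and carry no direction.

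The cyclic AMP response element TGACGTCA, which reads the same on both strands, lay in windows of 5 of the 25 genes (20.0%), against 2.03% of all genes. By window, the element lay in 7 of 46, against 1.79% of all windows. It is shown for 2 granule genes below the filter and 1 motor gene above it, because their windows share these letters. Capitals mark the element in Scg2 (chr1:79440060-79440121, minus strand), Chgb (chr2:132781543-132781604, plus strand) and Kif5c (chr2:49619233-49619294, plus strand).
Scg2: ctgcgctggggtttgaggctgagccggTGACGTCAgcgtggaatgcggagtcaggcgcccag
Chgb: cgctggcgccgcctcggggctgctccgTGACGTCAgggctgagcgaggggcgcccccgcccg
Kif5c: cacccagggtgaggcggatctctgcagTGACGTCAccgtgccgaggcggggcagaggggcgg
The element began at positions -68, -72 and -26 relative to the start sites of Scg2, Chgb and Kif5c. Celf3 and Mapk10 were the other genes with it. The left part TTCAGCACC of the element bound by the repressor REST lay in 1 of the 25 genes, Scg2, against 0.433% of all genes. Rest itself, which holds neuronal genes off outside neurons, read 5274, 6119 and 5214 in Mest-KO, against 5327, 5534 and 5698 in control, and differed by 0.03.

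The other neuronal genes were all above the filter, 1 higher and 5 lower. Uchl1, an abundant neuronal deubiquitinase, read 5642, 5024 and 5422 in Mest-KO, against 5777, 6508 and 5905 in control. The groups did not overlap but came close between Mest-KO 1 and control 1. The change was -0.14 (SE 0.0885; limma unadjusted p = 0.165, adjusted p = 0.9090). Gng3, a G protein gamma subunit of neurons, read 574, 601 and 628 in Mest-KO, against 789, 613 and 723 in control. Only control 2 fell within the range of Mest-KO, and the change was -0.25 (95% confidence interval -0.51 to 0.02; limma unadjusted p = 0.0666, adjusted p = 0.9090).

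Mapk10, a stress kinase (JNK3) expressed mainly in neurons, read 50.5, 42.9 and 38.1 in Mest-KO, against 86.8, 44.2 and 64.8 in control. Its change was -0.76 (95% confidence interval -1.59 to 0.07; limma unadjusted p = 0.0661, adjusted p = 0.9090), and its other probe sets, below the filter, gave -0.67 and -1.13. With an array left out it ran from -0.99 to -0.43, nearest to 0 without Mest-KO replicate 3. Sncg, the gamma-synuclein of sensory neurons, read 31.5, 69.4 and 35.1 in Mest-KO, against 86.6, 31.5 and 75.6 in control. The groups overlapped, with control 2 as low as Mest-KO 1, and the change was -0.70 (95% confidence interval -1.91 to 0.52). With an array left out it ran from -1.12 without Mest-KO replicate 2 to -0.31 without Mest-KO replicate 3. Rtn1, a reticulon of the neuronal endoplasmic reticulum, differed by -0.04 (95% confidence interval -0.33 to 0.25), and Tagln3, a neuronal calponin relative, by 0.17 (95% confidence interval -0.31 to 0.64).

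Probe sets of one gene did not always share a direction. Of the 76 probe sets, 42 lay above the filter, 15 higher and 27 lower in Mest-KO with a median change of -0.05. When every probe set was tested by itself, 0 of 42 passed at an adjusted p under 0.05, against a background of 0% of 27022. Before adjustment, 3 had a p under 0.05, against a background of 3.98%, and the groups did not overlap at 5, against a background of 9.38%. In 11 genes at least 2 probe sets were above the filter. They shared a sign in 5 of these (Elavl3, Kif5c, Nefl, Stmn2, Stmn3) and not in the other 6 (Dcx, Dpysl3, Elavl2, Elavl4, Snap25, Syt4).

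**Figure D3:**
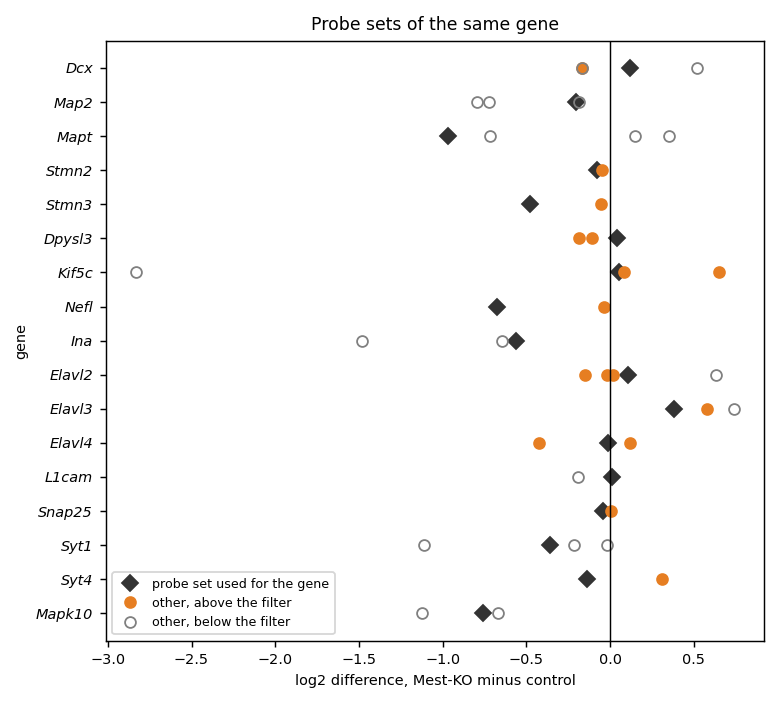
Log2 difference between Mest-KO and control at every probe set of the neuron genes that have more than 1 and were above the filter. Diamonds are the probe set used for the gene, filled circles are other probe sets above the filter and open circles are those below it. The 3 probe sets of Elavl3 lie above 0, while those of Mapt, Elavl4 and Syt4 lie on both sides.

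Many of these genes varied between pools of one genotype. The median SD within groups was 0.263 log2 units over the 26 genes, against 0.153 over all tested genes. It was largest for Syt1 (1.27), Nefl (1.04), Ina (1.04), Stmn2 (0.772), Sncg (0.765), Stmn3 (0.755), Snap25 (0.546) and Mapk10 (0.517). By contrast, it was 0.0509 for Map2, 0.0804 for Uchl1 and 0.0821 for Kif5c. The 26 genes were dimmer than all tested genes (mean log2 level 7.95 in Mest-KO and 8.14 in control, against 9.17 and 9.18). Spread at equal brightness was not compared. In the 8 most variable genes, control 3 ranked among the 3 highest arrays in 8 of 8, Mest-KO 2 in 7 and control 1 in 6. Control 2 did so in 1, Mest-KO 1 in 2 and Mest-KO 3 in 0. These 8 genes were picked for their spread within groups, so high and low pools within a group follow from that choice.

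Over all 26 genes, control 1 was the highest array for 10 (38.5%, against 17.5% of all tested genes) and Mest-KO 2 for 7 (26.9%, against 21.7%). Mest-KO 3 was the lowest for 12 (46.2%, against 21.1% of all tested genes). On the deposited scale, without quantile normalization, Mest-KO 3 was the lowest for 7 of 26 and control 2 also for 7. Over all tested genes these arrays were the lowest for 17.7% and 18% on that scale. The count for Mest-KO 3 was thus smaller on the deposited scale than after normalization. The normalized log2 value of Syt1 on Mest-KO 3 was 3.17, against 5.11 to 6.38 on the other arrays. The deposited scaling alone gave 12 of 26 genes higher and a median of -0.02. Centring each array on its median gave 3 of 26 higher and a median of -0.17. That centring moved the median of all genes to -0.14, so that the members lay 0.03 below all genes under both of these scalings.

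**Figure D4:**
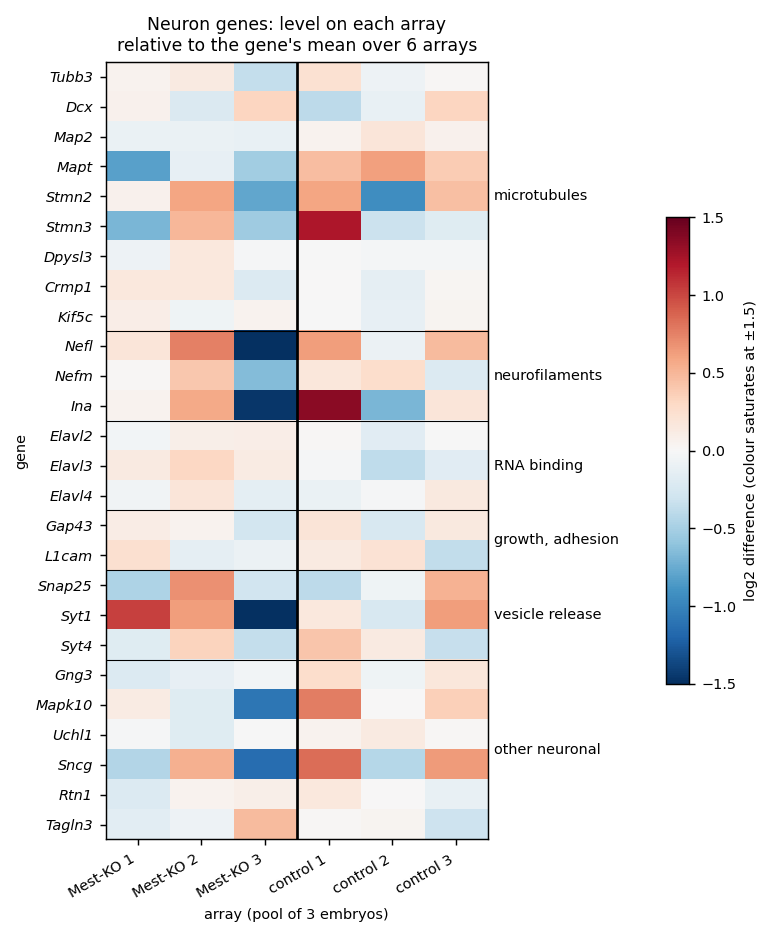
Normalized log2 level of the 26 neuron genes above the filter on each array, as the difference from the mean of that gene over 6 arrays (red above, blue below), with Mest-KO left of the vertical line. The deepest blue cells are Nefl, Ina and Syt1 on Mest-KO 3, and the deepest red ones are Ina and Stmn3 on control 1.

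A list of other neuronal genes was also read. Of its 42 genes, 37 had a probe set and 27 were above the filter, 15 higher and 12 lower in Mest-KO, with a median of 0.03 and 0 at an adjusted p under 0.05. The 1 gene with an unadjusted p under 0.05 was Kif5a, a neuronal kinesin, with a change of -0.27 (SE 0.102). Nsg2 and Cadm3 differed by -0.45 and -0.48, and Ank3, Kif3c and Syp by 0.32, 0.28 and 0.39. Synapse and maturity genes such as Syn1, Rbfox3, Slc17a6, Slc17a7 and Thy1 were below the filter.

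The neurogenic factors that act before these genes leaned the other way. Of 21 factors above the filter, 17 were higher and 4 lower, with a median of 0.32, and 0 passed after adjustment. That median ran from 0.14 (without Mest-KO replicate 2) to 0.34 with an array left out, and was 0.12 for the mean of probe sets and 0.10 for the most variable probe set. Under these probe set rules, 10 of 15 and 10 of 14 factors above the filter were higher, in that order. Both the 21 and the 17 include Rest (0.03), a repressor of neuronal genes. An unadjusted p under 0.05 was found for 5 of the 21 (23.8%, against the background of 5.15%). These were Insm1 (1.04), a zinc finger factor of newborn neurons, Neurod1 (0.57), the bHLH factor of neuroblasts, Srrm4 (0.47), a neural splicing regulator, St18 (0.65), a zinc finger factor, and Isl2 (-0.35), a LIM homeobox factor of neurons. With the variance trend, Srrm4 and St18 had limma unadjusted p values of 0.0531 and 0.0873, above 0.05. The count of higher neurogenic factors ran from 13 to 19 of 21 with an array left out, and that of the neuron genes from 7 to 16 of 26. The difference between both lists was not tested.

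Markers of other cells that a pool can hold also varied between pools. Above the filter were 7 of 16 hindbrain genes, 7 of 12 of glia and neural crest, and 14 of 14 of mesenchyme. The mean log2 level of the hindbrain genes, such as Zic1 and Lhx1, ran from 5.66 to 6.90 in Mest-KO and from 5.62 to 6.77 in control. That of the mesenchyme genes ran from 7.59 to 8.94 in Mest-KO and from 7.51 to 8.55 in control. For glia and neural crest it ran from 9.44 to 9.49 in Mest-KO and from 9.09 to 9.60 in control. Sox10 and Erbb3 lead that list and are also expressed by otic epithelium. In the hindbrain list 4 genes were higher and 3 lower, with Zic1 at 0.64 and Lhx1 at -0.67. Like Prrx1 of the mesenchyme list, Zic1 was highest on Mest-KO 2 and lowest on control 3. Whether the hindbrain and mesenchyme lists read the same tissue was not tested. The 26 neuron genes averaged 8.002, 8.23 and 7.62 in Mest-KO, against 8.31, 7.95 and 8.16 in control. Mest-KO 2 and control 1 were high in the neuron, hindbrain and mesenchyme lists alike. Control 3 was low in the hindbrain and mesenchyme lists and not in the neuron list. Mest-KO 1 was also low in the hindbrain and mesenchyme lists, and stood mid-range in the neuron list. Mest-KO 3 was the lowest array in the neuron list. In the hindbrain and mesenchyme lists it lay above both Mest-KO 1 and control 3. The neuron list thus did not order the pools as the hindbrain and mesenchyme lists did. For macrophages, 3 of 8 genes were above the filter, all 3 lower in Mest-KO with overlapping groups, and their mean log2 level was 5.66, 6.16 and 5.25 in Mest-KO, against 6.73, 5.94 and 5.99 in control. Like the neuron list, it was lowest on Mest-KO 3 and highest on control 1. For endothelium, 3 of 11 genes were above the filter, all 3 higher with overlapping groups, and their mean level ran from 5.86 to 6.61 in Mest-KO and from 5.17 to 6.22 in control. The macrophage markers Cx3cr1, Ptprc and Aif1, the endothelial markers Pecam1, Cdh5 and Kdr, the glial markers Cdh19, Foxd3, S100b and Gfap and the hindbrain markers Lhx5, Pax7, Olig2 and Ptf1a were below the filter. The part of these cells in the neuron gene values was not tested.

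**Figure D5:**
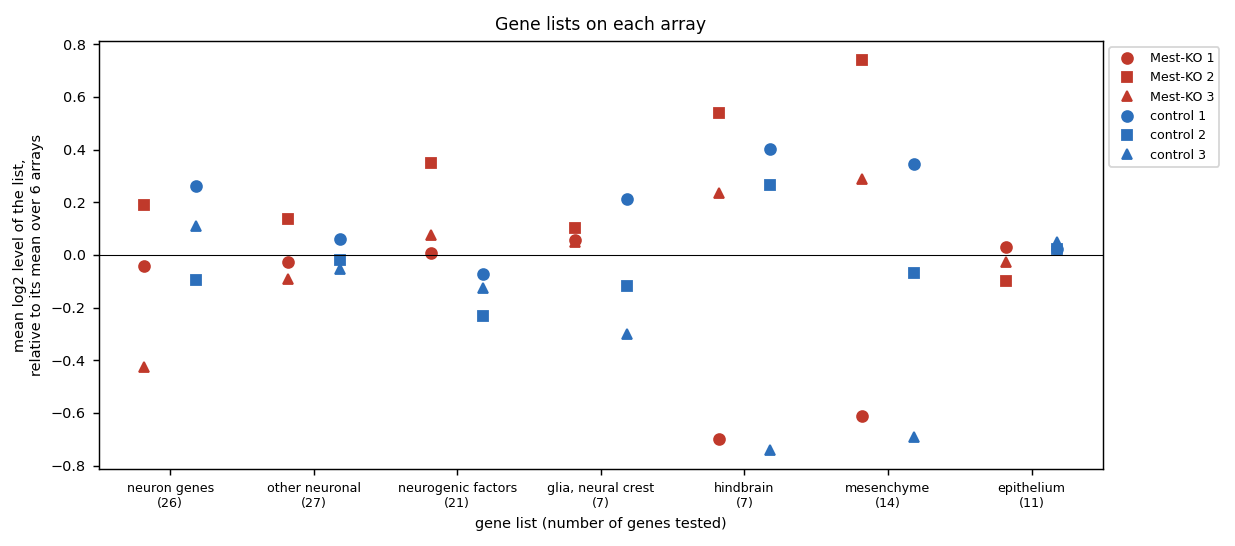
Mean log2 level of 7 gene lists on each array, as the difference from the mean of that list over 6 arrays, with Mest-KO (red) left of control (blue). Neuron genes are lowest on Mest-KO 3 and highest on control 1, neurogenic factors are higher on each Mest-KO array than on each control, and hindbrain and mesenchyme lists spread most.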

How the data were processed

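RNA of microdissected otic vesicles was measured on 6 Affymetrix arrays, 3 per group, from 300 ng of total RNA per the labels' protocols. The deposited values are linear probe set intensities from Affymetrix Expression Console 1.1, per the submitters' processing notes. Their trimmed mean (2% off each end) is 500 on all arrays, and the method that summarised the probes was not given in the labels. The 64 control probe sets took part in normalization only. A floor of 1 was set, followed by log2 and quantile normalization between arrays. The probe set of highest mean, among those with a single symbol (updated through RefSeq identifiers), stood for its gene, and genes above the 40th percentile were kept. Groups were tested with limma 3.58.1 (R 4.3.3; lmFit and eBayes, no trend, no covariate), with Benjamini-Hochberg adjustment over all genes and a threshold of 0.05. The steps were tested on simulated data. Figures used matplotlib 3.10.9.

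Per the labels the arrays are biological replicates. The genes and lists were chosen with earlier results of these data known, so lists are described by counts and medians without a test. Every gene of the set is accounted for, with values on every array for those with an unadjusted p under 0.05, those whose groups do not overlap and at least 2 of each role where measured. Same-numbered arrays did not pair: their deviations from the group means correlated at -0.11, -0.01 and -0.01 over genes. Other filters, scalings, probe set rules, floors, variance priors, weights, the replicate block and left-out arrays were tried as alternatives.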

Additional observations from a re-analysis of the deposited data

How the results depend on the processing

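The count of neuron genes past an adjusted p under 0.05 was 0 under every alternative run (no filter, a filter at the 60th percentile, median centring, the deposited scaling, the mean or the most variable probe set, a floor at 16, the trend, the trend fitted robustly, weights for arrays, the replicate block, a threshold of 0.10, each array left out, and, added after seeing the data, pools with both sexes only). The smallest adjusted p of a neuron gene over these was 0.1516. The counts of neuron probe sets and of other neuronal genes were also 0 throughout. With the replicate block, the count of genes was 0, as without it, and the block changed no call. The median change of the neuron genes stayed at -0.095. It could not differ, since a block balanced over both groups leaves each log2 change as it is. The count of all genes, 0 in the fit used here, was 7 under the filter at the 60th percentile, 25 under median centring, 1 for the most variable probe set, 13 with the trend, 16 when the trend was fitted robustly, and 7 at a threshold of 0.10. The cause was not tested. Leaving out 1 array at a time gave median changes from -0.208 to 0.039, which crossed 0 without Mest-KO replicate 3.

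Of the 26 genes, 7 kept their sign under each alternative that gave them a value (Map2, Mapt, Elavl3, Gng3, Mapk10, Uchl1 and Sncg). Only Gng3 and Uchl1 of these had a value under all 18. A stricter filter or another probe set rule left out the rest (15 settings for Mapt and Mapk10). Not all 18 test the sign. The filters, the trend, its robust fit and the replicate block leave each log2 change as it is, so they cannot reverse it. The other genes changed sign under at least 1 alternative. With an array left out, the changes ran from -0.107 to 0.057 for Elavl4, -0.172 to 0.117 for L1cam, -0.394 to 0.208 for Snap25, -0.102 to 0.055 for Rtn1, -0.029 to 0.087 for Dpysl3, -0.21 to 0.036 for Tubb3, -0.045 to 0.312 for Dcx, -0.554 to 0.304 for Stmn2, -0.85 to 0.012 for Stmn3, -1.212 to 0.137 for Nefl, -0.393 to 0.135 for Nefm, -1.035 to 0.034 for Ina, -0.211 to 0.046 for Gap43, -0.957 to 0.673 for Syt1, -0.348 to 0.031 for Syt4 and -0.032 to 0.287 for Tagln3. Array weights gave 0.073 for Stmn2 and -0.025 for L1cam. The deposited scaling gave 0.082 for Stmn2, -0.006 for Dpysl3, 0.034 for both Nefm and Elavl4, 0.009 for Gap43 and 0.085 for Snap25. Median centring gave -0.022 for Dcx, -0.155 for Dpysl3, -0.101 for Kif5c, -0.041 for Elavl2 and -0.021 for L1cam. The mean of probe sets gave -0.085 for Dpysl3, -0.512 for Kif5c and 0.085 for Syt4, and the most variable probe set gave -0.189 for Dpysl3 and 0.312 for Syt4. Pools with both sexes gave -0.039 for Crmp1, -0.025 for Kif5c, 0.132 for Snap25 and 0.05 for Rtn1. The number of arrays limits the precision, and genes below the filter carry no direction.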
